A study of Mus musculus with 15 samples.

Results

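In resting mouse liver, 848 of the 12543 H3K27me3 islands of the 0 h list on chromosomes 1 to 19 were at least 100 kb long from start to end. These very long domains were chosen by that length alone. They covered 141 Mb, which was 28.8% of all island length at 0 h and 5.78% of the annotated span of these chromosomes. The sections that follow give the genes inside them, the other marks they carried, and how each was kept or broken in the 5 other H3K27me3 lists.

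All mice were C57Bl/6, aged 8 to 12 weeks and on a normal diet, and whole liver was profiled by ChIP-seq after digestion of chromatin with micrococcal nuclease. The genotypes were Uhrf1hepKO (KO), in which hepatocytes lack Uhrf1, and wild type (WT). H3K27me3 was profiled in 1 KO and 2 WT libraries of resting liver, and in 1 WT library each at 30, 40 and 96 h of regeneration. The second WT library is the 0 h point of the regeneration series, and its list chose the domains. H3K4me3 had 2 KO and 2 WT libraries and H3K9me3 had 1 KO and 1 WT library, all from resting liver. Titles place the 0, 30, 40 and 96 h H3K27me3 libraries in 1 round. They place the H3K9me3 libraries and the second H3K4me3 library of each genotype in another. Titles of the KO and first WT H3K27me3 libraries and of the first H3K4me3 libraries name no round. What a round was is not said, and differences between such sets of libraries cannot be told apart from differences between rounds. The labels do not say how Uhrf1 was deleted, how regeneration was started or whether libraries came from separate animals. For H3K27me3 and H3K9me3, with 1 KO library and 1 library at each time, no p-value can be given between groups.

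H3K27me3 is deposited by Polycomb repressive complex 2 and marks genes that are kept silent, above all developmental regulators that a tissue does not use. It can spread from such genes over long stretches of chromatin. H3K4me3 marks active promoters and, together with H3K27me3, poised ones, and H3K9me3 is typical of silenced repeats and heterochromatin. Uhrf1 directs DNA methylation to newly replicated DNA. Liver is a mixture of hepatocytes with bile duct, endothelial, stellate and immune cells, so a mark in fewer cells and a weaker mark in every cell cannot be told apart.

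The starts of 4 genes, chosen after their values were seen, show the kinds of sequence that lay within the domains and did or did not stay in islands at 30 and 40 h. The windows are 300 bases long, from 250 bases before the start to 50 after it, and come from RefSeq (GRCm38.p6). CpG dinucleotides (CG) are in capitals. Over the 31396 windows listed for the autosomes, 94.8% held at least 1 CG and the median was 7 (quartiles 3 and 21).
Hoxa5, a homeobox regulator of body axis pattern (chr6:52204538-52204837, minus strand, 29 CG): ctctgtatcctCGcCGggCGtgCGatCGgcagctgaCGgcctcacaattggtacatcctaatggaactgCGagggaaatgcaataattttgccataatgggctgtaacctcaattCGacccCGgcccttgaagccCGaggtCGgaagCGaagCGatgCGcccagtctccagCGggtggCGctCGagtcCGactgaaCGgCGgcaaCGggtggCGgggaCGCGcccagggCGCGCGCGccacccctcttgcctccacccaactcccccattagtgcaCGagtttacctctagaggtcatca
Igf1r, the receptor for insulin-like growth factor (chr7:67952007-67952306, plus strand, 48 CG): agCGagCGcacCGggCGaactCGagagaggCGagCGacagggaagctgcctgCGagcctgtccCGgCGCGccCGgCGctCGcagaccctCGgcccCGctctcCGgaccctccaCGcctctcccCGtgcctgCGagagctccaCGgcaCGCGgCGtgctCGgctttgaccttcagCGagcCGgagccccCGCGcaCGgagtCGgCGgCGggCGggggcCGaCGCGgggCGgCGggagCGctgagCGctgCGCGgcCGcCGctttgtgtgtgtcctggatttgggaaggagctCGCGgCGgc
Sox1, a transcription factor of neural progenitors (chr8:12395269-12395568, plus strand, 37 CG): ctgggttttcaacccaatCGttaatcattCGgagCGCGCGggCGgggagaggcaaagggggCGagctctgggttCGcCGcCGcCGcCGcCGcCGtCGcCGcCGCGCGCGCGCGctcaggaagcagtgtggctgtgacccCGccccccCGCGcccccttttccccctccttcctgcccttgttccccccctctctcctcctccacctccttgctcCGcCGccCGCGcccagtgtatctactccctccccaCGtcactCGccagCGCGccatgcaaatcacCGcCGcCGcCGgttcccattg
Krt27, a keratin of hair follicles (chr11:99351069-99351368, minus strand, 6 CG): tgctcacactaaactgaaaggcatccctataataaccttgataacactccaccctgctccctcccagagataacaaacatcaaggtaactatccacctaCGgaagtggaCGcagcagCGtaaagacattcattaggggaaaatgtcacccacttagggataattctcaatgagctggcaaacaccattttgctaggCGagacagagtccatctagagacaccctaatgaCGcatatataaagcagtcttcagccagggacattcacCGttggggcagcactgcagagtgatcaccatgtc
The starts of Hoxa5 and Igf1r lay in islands in KO, in WT replicate 1 and at 96 h, and outside islands at 30 and 40 h. The starts of Sox1 and Krt27 lay in islands in all 5 lists. These 4 starts say nothing of how CG content and cover go together. A check of CG content over the genes inside domains was void, because a start was listed for 75.7% of the 947.

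The Hox domains also hold microRNAs with shared seeds (bases 2 to 8, in capitals, from RefSeq), which act on the mRNAs of Hox genes and others.
miR-10a-5p (HoxB domain): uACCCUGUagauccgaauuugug
miR-10b-5p (HoxD domain): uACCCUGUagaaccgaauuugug
miR-196a-5p (HoxB and HoxC domains): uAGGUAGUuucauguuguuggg
miR-196b-5p (HoxA domain): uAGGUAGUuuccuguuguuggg
The miR-10a and miR-10b loci lay in islands in KO, in WT replicate 1 and at 96 h, and outside islands at 30 and 40 h. The miR-196b locus and the HoxC copy of miR-196a lay outside islands at 30 h alone, and the HoxB copy of miR-196a lay in islands in all 5 lists. In all, 61 of 919 listed miRNA hairpins lay in 50 of the domains.

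The domains were 101 to 798 kb long with a median of 140 kb. Island bounds fall on whole windows of 1000 bp, and end minus start of an island is 1 bp less than its length, so the shortest domains were 101 kb long. The 19 domains of that length, just inside the limit, had a median fold over control, as deposited by the authors, of 1.67 (0.867 to 2.14), and the 15 islands of 100 kb just outside it had one of 1.83 (1.46 to 2.43). In all, 478 domains were under 150 kb and 45 were 300 kb or longer. The fold ranged from 0.692 to 3.35 with a median of 1.74, and the other enriched islands had a median of 1.57 (1.04 to 3.58). Chromosome 11 was the most densely covered, with 81 domains over 11.7% of its span. Chromosomes 10 and 3 held 15 and 21 domains, over 1.73% and 1.81% of their span.

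Of the 848 domains, 12 did not pass the false discovery rate (FDR) limit of 0.01 in their own list. Their folds were 0.692 to 1.01, and their control libraries held 90.7 to 312 reads per kb, against a median of 59.9 over the 836 enriched domains. Several lie in multi-copy gene clusters. The domain at chr1:88210001-88311000 covers the 3' part of the Ugt1a cluster of bilirubin- and drug-conjugating enzymes, and a pair on chromosome 4 lie among Zfp978, Zfp988 and Zfp982, which encode zinc finger proteins. Reads from near-identical copies may be placed on any of them, so calls here are uncertain. These 12 were left out of the mark densities below.

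The domains held 947 of 20665 protein-coding genes (4.58%) wholly inside and touched 1443 (6.98%), on 5.78% of the annotated span. Whether they held fewer or more genes than their length would give thus depended on how genes that cross a domain's edge were counted. No gene was wholly inside 414 domains, 150 touched none, and 83 lay within the body of a single gene. At the other end, 37 domains held 5 or more genes, and the most, 19, lay in a keratin and keratin-associated protein domain at chr11:99494001-99713000.

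Which genes they held differed by family. All 39 Hox genes, which set identity along the body axis, lay inside 4 domains, and 41 of 49 keratin genes lay inside 6. Among other homeobox and paired-box genes 52 of 137 were inside, and among Sox, T-box, Gata, Fox and bHLH transcription factor genes 30 of 109, where 4.58% of all protein-coding genes were. Potassium channel genes had 20 of 91 inside, and Fgf, Bmp, Gdf and Shh ligands 8 of 43. Olfactory receptor genes had 14 of 1100 inside, Zfp genes 2 of 386, and vomeronasal receptor genes 2 of 352. None of 13 housekeeping genes, 10 hepatocyte markers and 8 lymphocyte markers was inside. Markers of other liver cells were inside in part. They were Krt7 and Krt19 (bile duct keratins, 2 of 7 bile duct markers), Kdr (an endothelial VEGF receptor, 1 of 8), Des and Col1a1 (desmin and a collagen chain of stellate cells and fibroblasts, 2 of 8) and Clec4f (a receptor of Kupffer cells, 1 of 6). The bodies of Krt7 and Des were wholly covered in all 5 other lists, and the others in part in some list. Krt19 was 96.3% covered at 96 h, Kdr 89.2% in WT replicate 1 and 89.0% at 30 h, Col1a1 77.5% at 30 h and Clec4f 56.8% at 30 h, and each was wholly covered in the lists not named for it.

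To ask how the domains stood in the other lists, each was given 1 of 4 classes per list. It was kept whole where a single island spanned at least 90% of it. It was broken where it was not kept whole and at least 10% of it lay in 2 or more islands, shortened where a single island covered 10% or more but less than 90%, and absent where under 10% was covered. Of the 848 domains, 283 (33.4%) were kept whole in KO, where 42.5% of all enriched 0 h islands were. In WT replicate 1, 211 (24.9%) were kept whole, against 32.7% of all 0 h islands. At 30 h it was 63 (7.43%, against 24%), at 40 h 51 (6.01%, against 18.8%) and at 96 h 168 (19.8%, against 33.3%). Shares for the domains were thus below the background in every list, and lowest at 30 and 40 h. Most islands of this background are far shorter than the domains. Of the enriched 0 h islands of 50 to 100 kb, 41.9%, 31.2%, 17.6%, 11.5% and 28.2% were kept whole in the same order of lists.

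Broken domains were the most frequent class in each list, with 497 in KO, 536 in WT replicate 1, 694 at 30 h, 701 at 40 h and 600 at 96 h. The backgrounds for broken islands were 12.9%, 11.6%, 16.5%, 16% and 15.7% in the same order, over islands most of which are far shorter and have less room for a gap. Among 1717 islands of 50 to 100 kb, 33.7%, 32.1%, 45.9%, 43.4% and 41.0% were broken. Shortened domains numbered 50 in KO, 87 in WT replicate 1, and 74, 71 and 64 at 30, 40 and 96 h, where 27.2%, 26.6%, 29.2%, 29.9% and 31.5% of all 0 h islands were. Few domains were absent, 18 in KO, 14 in WT replicate 1, and 17, 25 and 16 at 30, 40 and 96 h, where 17.5%, 29.1%, 30.4%, 35.3% and 19.5% of all 0 h islands were. How much length was left uncovered differed by list. The median domain was 92.6% covered in KO, 87.8% in WT replicate 1, and 81.1%, 74.4% and 86.4% covered at 30, 40 and 96 h. At 40 h the lower quartile over domains was 56.6%, and gaps within domains took 20.8 Mb of the 141 Mb.

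**Figure D1:**
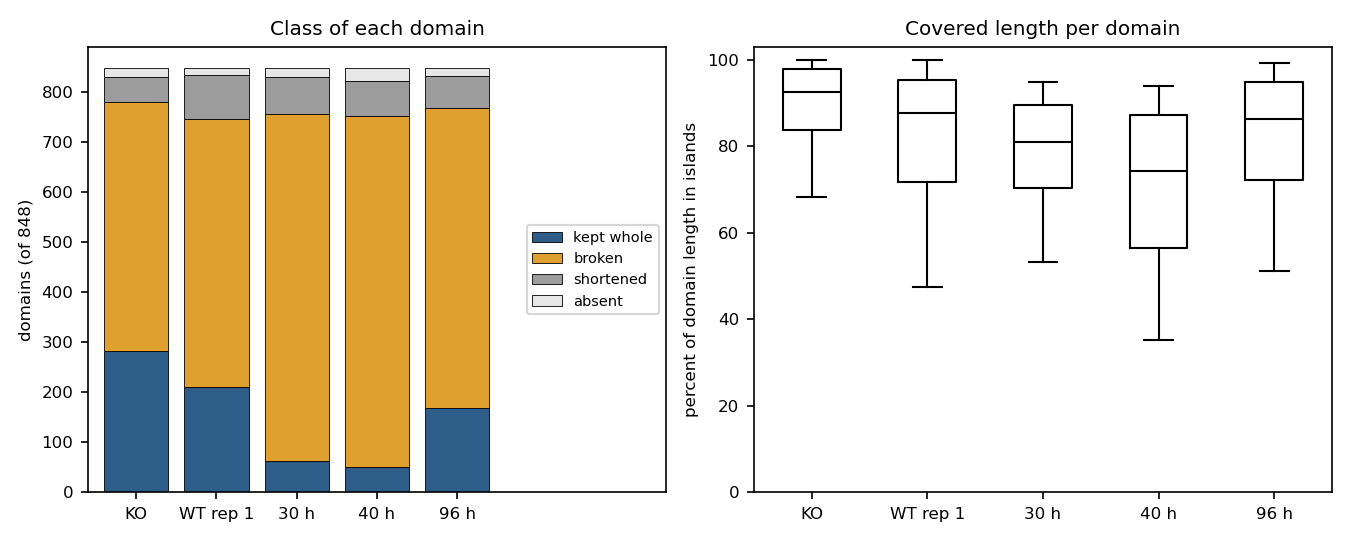
The left panel stacks the number of the 848 domains in each class (vertical axis) for each list, and the right panel shows the percent of each domain's length in islands (line, median; box, quartiles; whiskers, 10th and 90th percentiles). The kept whole class is smallest at 30 h (63) and 40 h (51), whereas the median covered length stays at 74.4% or above in each list.

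The gaps lay both within and at the edges of domains. Islands were called with a gap of 4000 bp, which joins windows across shorter gaps. The median lengths below thus stand near the shortest gap that could be seen. Within domains there were 869 gaps in KO, 937 in WT replicate 1, and 1458, 1558 and 1176 at 30, 40 and 96 h, with medians of 6 kb in KO and 7 kb in each other list. The longest were 74, 135, 110, 117 and 86 kb. Bridging gaps of up to 10 kb gave 570 kept whole in KO, 420 in WT replicate 1, 305 at 30 h, 242 at 40 h and 427 at 96 h. Ends were covered less than middles in each list. The bounds are where the 0 h call ended, so lower cover at the ends is in part built into the choice of domains. With each domain cut into 10 equal parts, parts 1 and 10 were 79.2% and 78.3% covered on average in KO, and parts 5 and 6 were 91.8% and 92.5% covered. At 40 h parts 1 and 10 were 61.0% and 59.2% covered, and parts 5 and 6 were 74.8% and 74.4% covered.

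Library depth moved with these counts. The 30, 40 and 96 h lists were called against the same control library, since islands with equal bounds had equal control reads in all of the 243, 213 and 242 cases for the 3 pairs. Against that control, the scale of the ChIP library was 0.369 at 30 h, 0.342 at 40 h and 0.438 at 96 h, so the 30 and 40 h libraries were 0.842 and 0.779 times as deep as that of 96 h. The part of depth in the counts was not tested. For a further count, the islands of highest fold were taken from each list up to the covered length of the shortest list. Then 53, 51 and 164 domains were kept whole at 30, 40 and 96 h. This cut leaves each island as it was called at its own depth.

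Across the series 11 domains were kept whole in all 5 lists and 455 in none. At 30, 40 and 96 h in turn, 466 domains were broken at each time, and 110 were broken at 30 and 40 h and kept whole at 96 h. The reverse, kept whole at 30 and 40 h and broken at 96 h, was seen in 4. From 40 to 96 h the covered share was higher in 619 domains, lower in 195 and equal in 34, with a median difference of 8.64 percentage points. Between 30 and 40 h, 527 domains were less covered at 40 h and 291 more, with a median of -4.95 points. Over all domains 78.1%, 70.5% and 80.8% of length was covered at 30, 40 and 96 h. Enriched 0 h islands of 50 to 100 kb had 70.0%, 60.7% and 75.1%, and all enriched 0 h islands had 64.2%, 56.7% and 71.0%. The drop and the rise were thus not particular to the domains. Times share a control and have 1 library each, so these are differences between libraries.

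The longest domains showed the range of outcomes. The longest, 798 kb at chr4:125136001-125934000, holds Grik3, a kainate receptor subunit of neurons. It was 94.4% covered in KO by 8 islands, 62.7% in WT replicate 1 by 12, and 79.8%, 50.3% and 70.1% covered at 30, 40 and 96 h by 11, 14 and 15. It had no piece over 24.8% of its length in any of these lists. The next, 743 kb at chr8:11886001-12629000 around Sox1, was 96.6% covered in KO, 96.4% in WT replicate 1, and 94.6%, 93.7% and 96.8% at 30, 40 and 96 h. Its fold at 0 h was 2.54, against 1.74 for the Grik3 domain. The Sox1 domain was kept whole in KO, in WT replicate 1 and at 96 h and broken into 4 and 6 pieces at 30 and 40 h.

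A 509 kb domain at chr7:67747001-68256000 covers Igf1r. It was 96.3% covered in KO by a single island, 95.3% in WT replicate 1 by 2, and 93.3%, 94.1% and 94.9% covered at 30, 40 and 96 h by 5, 4 and 3. It was kept whole in KO and WT replicate 1, and a gap at 30 and at 40 h lay over the Igf1r start shown above. A 492 kb domain at chr9:49589001-50081000, touching only Ncam1, a neural cell adhesion gene, was wholly covered by 1 island in KO, and was 98.0% covered in WT replicate 1 and 90.04%, 88.2% and 96.3% at 30, 40 and 96 h. A 435 kb domain at chr13:45019001-45454000 around Mylip, an E3 ligase for the LDL receptor, was 99.3% covered in KO, 100% in WT replicate 1, 91.5% at 30 h, 100% at 40 h and 99.8% at 96 h. It was broken at 30 h only, among these lists.

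The 4 Hox domains were almost wholly covered in KO, in WT replicate 1 and at 96 h. At 30 and 40 h parts of their gene clusters were uncovered, with more of the Hox genes uncovered in HoxA and HoxB than in HoxC and HoxD. The HoxA domain (chr6:52032001-52381000, 349 kb, 11 Hox genes) was 99.7% covered in KO, 100% in WT replicate 1, and 63.6%, 74.8% and 98.6% covered at 30, 40 and 96 h. Its longest uncovered stretch at 30 h was 110 kb, from 126 to 236 kb from its start, and 10 of its 11 Hox genes had none of their body in islands. At 40 h that stretch was 64 kb and 7 of the genes were uncovered. Hoxa5 and Hoxa13 were uncovered at both times and wholly covered in the other 3 lists. Evx1, the even-skipped gene at the end of the same domain, was 69.3% covered at 30 h and 100% at 40 h.

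The HoxB domain (chr11:96078001-96576000, 498 kb, 10 Hox genes) was 98.8% covered in KO, 98.4% in WT replicate 1, and 80.3%, 72.7% and 98.0% covered at 30, 40 and 96 h. It was broken in every one of these lists, into 2 islands in KO, 2 in WT replicate 1, and 4, 7 and 3 at 30, 40 and 96 h, whereas the other Hox domains were kept whole in KO, in WT replicate 1 and at 96 h. Gaps of 85 kb at 30 h and 88 kb at 40 h left 7 and 8 of its Hox genes uncovered. Hoxb13 and Hoxb1, at the 2 ends of the cluster, were wholly covered in all 5 lists. The HoxC domain (chr15:102723001-103087000, 9 Hox genes) was 97.3%, 96.4%, 77.2%, 88.2% and 99.7% covered in KO, WT replicate 1 and at 30, 40 and 96 h, with 4 genes uncovered at 30 h and 2 at 40 h. The HoxD domain (chr2:74629001-74825000, 9 Hox genes) was 100%, 99.5%, 75%, 79.6% and 100% covered in the same order, with 4 genes uncovered at 30 h and 1 at 40 h. Hoxd13 was wholly covered at 30 h and 17.8% covered at 40 h.

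In all, the 39 Hox genes were at least 50% covered in KO, in WT replicate 1 and at 96 h, 11 of them at 30 h and 19 at 40 h. Of the 4579 genes with 50% or more of their body covered at 0 h, the share that was so again was 74.1% in KO, 65.4% in WT replicate 1, and 59.9%, 54.9% and 70.5% at 30, 40 and 96 h. Of the 928 such genes inside the long domains, 856, 810, 736, 686 and 833 were, in the same order. Hox genes of a cluster share a domain and often a gap, so their counts are not independent.

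Other developmental regulators went the same way in part. Of the 52 other homeobox and paired-box genes inside domains, all 52 were at least 50% covered in KO, in WT replicate 1 and at 96 h, 28 at 30 h and 35 at 40 h. Nkx2-3, a homeobox gene of spleen and gut, was wholly covered in KO, in WT replicate 1 and at 96 h and uncovered at 30 and 40 h. En1 and Gbx2, homeobox genes of the midbrain and hindbrain, were uncovered at 30 h and wholly covered in the other 4 lists. Pax2, a paired-box gene of kidney, was 82.1% covered at 30 h and 84.7% at 40 h. Of the 30 Sox, T-box, Gata, Fox and bHLH genes, 29 were at least 50% covered in KO, 27 in WT replicate 1, and 24, 20 and 28 at 30, 40 and 96 h. Foxd3, a regulator of neural crest, was uncovered at 30 and 40 h and wholly covered in the other 3, whereas Sox1 was wholly covered in all 5 and Tbx5, a heart and limb regulator, was wholly covered at all 3 times.

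Keratin and channel genes held more of their cover at 30 and 40 h than Hox genes did. Of 41 keratin genes inside domains, 41 were at least 50% covered in KO, 38 in WT replicate 1, and 37, 30 and 38 at 30, 40 and 96 h. Krt27 was wholly covered in all 5 lists, and Krt10, a keratin of differentiated epidermis, was 100% covered in KO, 61.1% in WT replicate 1, and 52.9%, 3.7% and 61.1% covered at 30, 40 and 96 h. Potassium channel genes had 19 of 20 in KO, 19 in WT replicate 1, and 14, 18 and 19 at the 3 times. Bmp2, a bone morphogenetic ligand, was uncovered at 30 h, 73.5% covered at 40 h and wholly covered in KO, in WT replicate 1 and at 96 h, and Fgf4 was wholly covered in all 5. Drd2, the dopamine D2 receptor gene, was 88.2% covered in KO and 100% in WT replicate 1, and 74.9%, 100% and 67.6% covered at 30, 40 and 96 h.

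**Figure D2:**
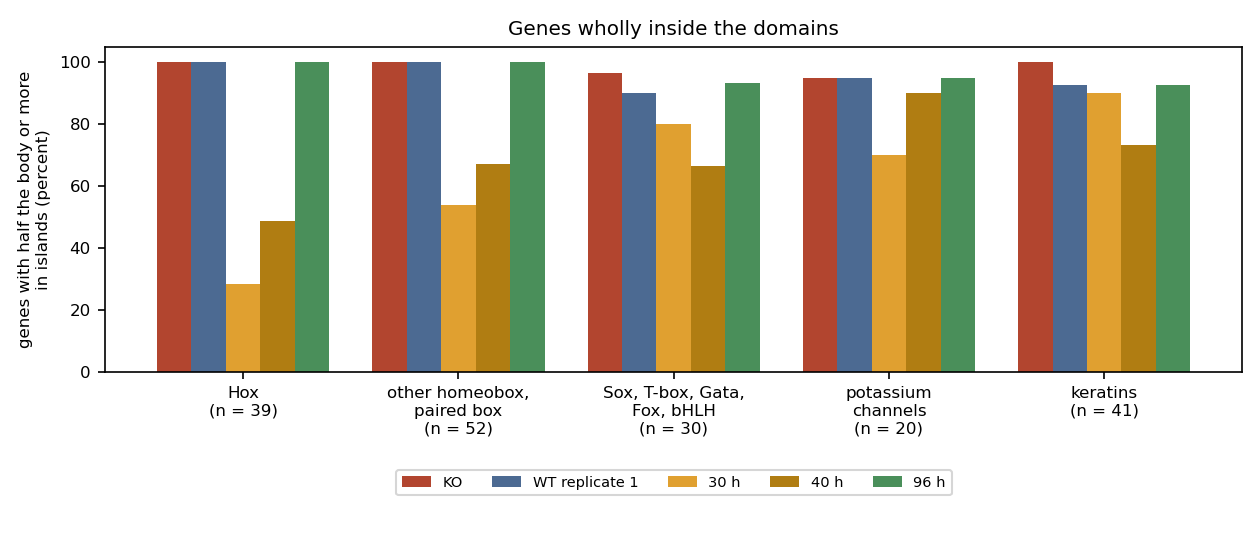
Bars give the percent of genes wholly inside domains (vertical axis) that had at least 50% of their body in islands, for 5 families and the 5 lists. For Hox genes the count is 39 of 39 in KO, WT replicate 1 and at 96 h, against 11 at 30 h and 19 at 40 h, and for keratins it is 30 of 41 or more in each list.

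Domains with the highest fold at 0 h were kept whole more often than those with the lowest in 3 lists, less often at 30 h, and about as often at 40 h. The 170 domains with a fold of 1.99 or more had 97 kept whole in KO, 93 in WT replicate 1 and 79 at 96 h, but 7 at 30 h and 17 at 40 h. The 170 of lowest fold had 40, 21 and 19 in KO, WT replicate 1 and at 96 h, and 15 and 16 at 30 and 40 h. They take in the 12 domains that failed the FDR limit. Of those, 1, 4 and 5 were kept whole in KO, WT replicate 1 and at 96 h, and 4 and 4 at 30 and 40 h. In the bins between, from low to high fold, 14, 13 and 14 were kept whole at 30 h and 4, 4 and 10 at 40 h. Fold at 0 h is a value of the list that chose the domains and is given here as a description. The 75 domains that hold a gene of the developmental transcription factor lists had a median fold of 2.01, and 26 were kept whole in KO, 25 in WT replicate 1, 1 at 30 h, 2 at 40 h and 24 at 96 h. Of 149 enriched domains that touch no protein-coding gene, with a median fold of 1.67, the counts were 49, 31, 7, 6 and 30. Longer domains were kept whole less often, but this class asks for a longer single island in a longer domain. Of the 45 domains of 300 kb or longer, 11 were kept whole in KO, 8 in WT replicate 1, and 1, 1 and 7 at 30, 40 and 96 h. Their covered length was not lower. It was 92.5%, 83.9%, 83.0%, 76.9% and 84.0% in the same order of lists. For the 478 domains under 150 kb it was 85.1%, 77.6%, 74.8%, 67.5% and 79.0%.

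**Figure D3:**
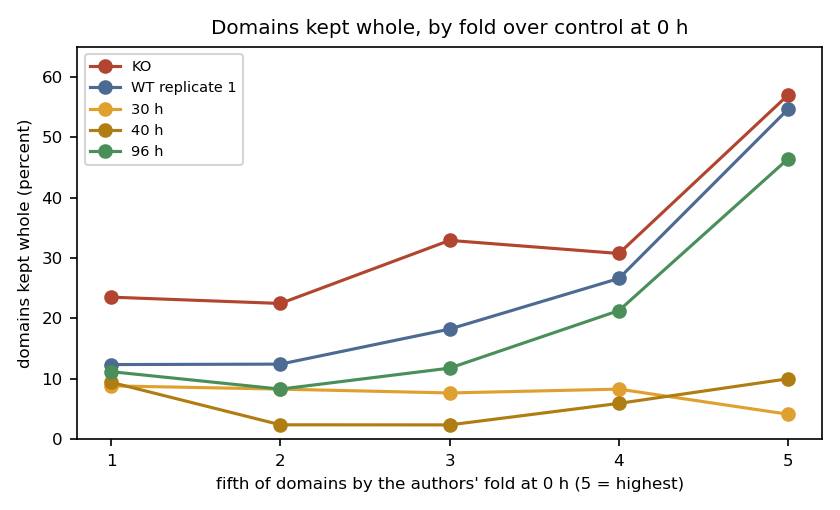
Lines give the percent of domains kept whole (vertical axis) in bins of the domains by the authors' fold at 0 h (horizontal axis, 5 bins of 169 or 170 domains each). The share reaches 57.1% in KO, 54.7% in WT replicate 1 and 46.5% at 96 h in the bin of highest fold, against 4.12% at 30 h and 10% at 40 h.

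The fold of the pieces themselves was also lower at 30 and 40 h. Over the 170 domains of highest fold, the longest piece had a median fold of 2.16 in KO and 2.23 in WT replicate 1, and of 1.65, 1.69 and 2.26 at 30, 40 and 96 h. These folds are the authors' and their lists have different controls and depths, apart from the 3 times, which share a control.

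H3K4me3 was sparse in the domains in both genotypes. The second library of each genotype is titled H3K4me3 but carries an antibody tag that names H3K9me3, so the values of each library are given. Peaks covered 0.608% and 0.393% of domain length in the KO libraries and 0.662% and 0.243% in the WT libraries. Over all the span they covered 1.80% and 1.01% in KO and 1.83% and 0.856% in WT. The other enriched islands lay between, with 0.962% and 0.640% in KO and 1.03% and 0.412% in WT. Low H3K4me3 was thus not particular to the domains. The means within domains were 0.501% ± 0.152 in KO and 0.453% ± 0.297 in WT (SD, n = 2 each), and the groups overlapped (exact permutation test, two-sided, p = 1, where 2 against 2 libraries cannot go below 0.333). The test did not pair libraries by round. Replicates, which also differ in round label and antibody tag, differed more than genotypes did. Of the 947 genes inside, 399 and 281 had a peak within 1 kb in the KO libraries (42.1% and 29.7%) and 429 and 218 in the WT libraries (45.3% and 23.0%). Over all protein-coding genes the shares were 71.3% and 65.7% in KO and 71.8% and 62.8% in WT. Of 836 enriched domains, 212 had no H3K4me3 peak in any library and 306 had one in all 4. Those with the most H3K4me3 by length included the Mup17 to Mup19 cluster of major urinary protein genes (chr4:61576001-61924000), whose near-identical copies make it uncertain, the HoxA and HoxB domains, and the Bmp2 domain (chr2:133527001-133767000), where peaks covered 3.46% and 2.94% in KO and 3.93% and 2.26% in WT.

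Where H3K4me3 stood in the domains, H3K27me3 was interrupted at 30 and 40 h. There were 584 H3K4me3 peaks that both WT libraries shared, in 293 domains. The 1 kb window at the peak centre lay in H3K27me3 islands for 82.4% of them in KO and 84.4% in WT replicate 1, and for 42.6%, 46.7% and 83.7% at 30, 40 and 96 h. At 20 to 30 kb from the same peaks and still in the domain, the shares were 87.5% and 84.5% in KO and WT replicate 1, and 75.5%, 72.8% and 82.8% at 30, 40 and 96 h. The difference was -5.19 points in KO, -0.0961 in WT replicate 1, -32.9 at 30 h, -26.1 at 40 h and 0.898 at 96 h. The 96 h list has the same control library as those of 30 and 40 h. With the peaks of the first WT library alone, without the one whose tag names H3K9me3, the difference was -25.03 points at 30 h and -17.1 at 40 h, and 0.29 at 96 h.

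**Figure D4:**
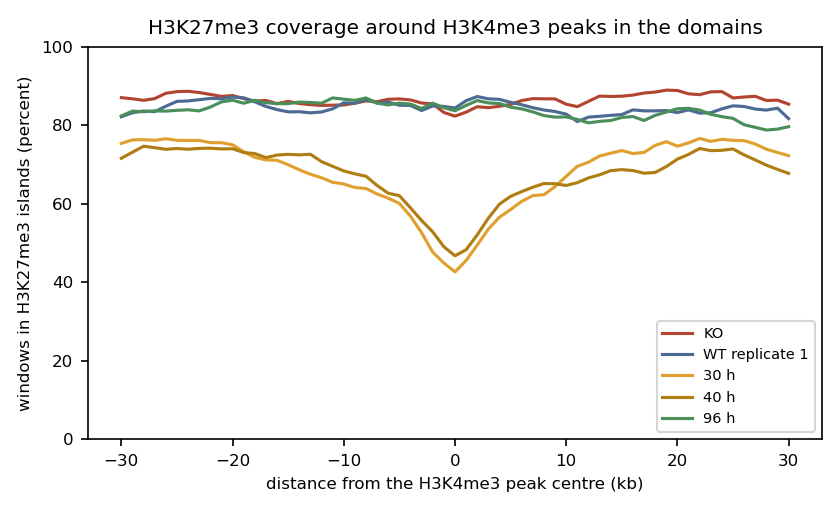
The percent of 1 kb windows in H3K27me3 islands (vertical axis) is plotted against distance in kb from the centres of 584 H3K4me3 peaks shared by both WT libraries (horizontal axis), counting windows within the domain only. The 30 h and 40 h lines dip to 42.6% and 46.7% at the centre, while KO, WT replicate 1 and 96 h stay between 82.4% and 84.4% there.

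The interruption was not uniform and did not make up most of the gaps. Within single domains, windows at shared peaks were less covered than the rest of the domain in 158 of 293 at 30 h and more covered in 121, and at 40 h in 149 and 131. In KO they were less covered in 57 and more in 193, in WT replicate 1 in 51 and 207, and at 96 h in 54 and 210. Some domains hold up to 19 such peaks, so the pooled shares weigh those more. Of the 1458 gaps within enriched domains at 30 h, 114 (7.82%) held the centre of a shared peak, and of the 1558 at 40 h, 104 (6.68%), against 28 of 869 in KO, 28 of 937 in WT replicate 1 and 31 of 1176 at 96 h. Domains with and without a shared peak were kept whole at like rates, 17 of 293 and 42 of 543 at 30 h. Shared peaks in islands of 50 to 100 kb gave a like picture, with 76.2% covered in KO, 75.7% in WT replicate 1, and 43.8%, 44.3% and 78.3% at 30, 40 and 96 h, so islands shorter than the domains showed it too. No H3K4me3 library of regenerating liver was analysed here.

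Gene bodies gave a like picture at 30 h and a less even one at 40 h. Of the genes inside domains and at least 50% covered at 0 h, 195 had H3K4me3 within 1 kb in both WT libraries. Of these, 87.7% were at least 50% covered in KO, 82.6% in WT replicate 1, and 61.5%, 59.5% and 85.1% at 30, 40 and 96 h. Of the 489 with H3K4me3 in neither WT library, the shares were 92.8%, 88.3%, 86.7%, 75.9% and 89.98%. The 244 with it in 1 WT library had 94.7%, 88.9%, 78.7%, 81.6% and 93.0%. At 40 h these were thus at least 50% covered more often than genes with H3K4me3 in neither. Igf1r, which has H3K4me3 in all 4 libraries, was still 96.2% and 90.9% covered at 30 and 40 h, its gap being narrow beside a long body. Hoxa13 and Nkx2-3 had no H3K4me3 in any library and were uncovered at both times. Pkm, the pyruvate kinase gene that liver expresses little of, had H3K4me3 in all 4 libraries and was wholly covered in KO, in WT replicate 1 and at 96 h, and 32.3% and 27.95% covered at 30 and 40 h.

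Gene starts gave like counts. Of 909 genes with a listed start in an enriched domain, a window of 1 kb either side of the start touched an island in 846 in KO, 843 in WT replicate 1, and 711, 691 and 847 at 30, 40 and 96 h. Among genes anywhere with a marked start window at 0 h, the shares were 76%, 73.4%, 57.3%, 54% and 79.7%. Widening the window to 2.5 kb gave 856, 850, 757, 736 and 863.

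H3K9me3 took a small part of the domains. Broad peaks covered 1.58% of their length in KO and 1.66% in WT, against 2.16% in KO and 2.53% in WT outside all enriched islands, and 1.99% in KO and 2.31% in WT over the whole span. The other enriched islands carried less than the domains, 1.15% in KO and 1.31% in WT. With broad peaks of −log10 q 5 or more alone, the order against the rest turned round in KO, where 0.0798% of domain length was covered against 0.0710% outside islands, and not in WT, where it was 0.0558% against 0.0604%. Such strong peaks were few. The domains held 0.847 per Mb in KO and 0.610 in WT, against 0.283 in KO and 0.223 in WT outside islands. The other enriched islands were near the domains in this, with 0.755 per Mb in KO and 0.609 in WT. At least 10% of the length carried H3K9me3 in 7 enriched domains in KO and 9 in WT. The domains with the most included those of the Cyp3a41a and Cyp3a41b steroid- and drug-oxidising enzymes (chr5:145513001-145790000, 17.6% in KO and 18.3% in WT) and of Sult2a1, Sult2a2 and Sult2a5, hydroxysteroid sulfotransferases (chr7:13598001-13885000, 12.9% in KO and 14.1% in WT). Both are families of close copies. The 2 Zfp domains on chromosome 4 that failed the FDR limit had the most, with 76.8% and 87.0% in KO and 75.5% and 87.6% in WT.

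KO covered more of the domains than WT replicate 1, with which it shares a control (411 of 411 islands with equal bounds had equal control reads). Neither list chose the domains. In KO 87.9% of domain length lay in islands, against 81.0% in WT replicate 1, a difference of 6.86 points. KO was also higher outside the domains. Over enriched 0 h islands of 50 to 100 kb it covered 82.4% of length, against 73.2% in WT replicate 1. Over all enriched 0 h islands it was 78.3% against 67.9%, so higher cover in KO was not particular to the domains. Per domain, KO was higher in 556, lower in 204 and equal in 88, with a median difference of 3.996 points. A difference of at least 25 points was seen in 88 domains with KO higher and in 11 with KO lower. The KO list was longer over all chromosomes, with 500 Mb against 417 Mb in WT replicate 1, and its ChIP library 1.12 times as deep against the same control; their part in the difference was not tested. Cut to an equal covered length, the lists differed by 5.29 points, with islands of fold 1.5 or more by 10.3 and with islands of fold 2 or more by 1.90. The Prkcb domain (chr7:122242001-122529000), in the body of a protein kinase C gene, was wholly covered in KO and 70.4% covered in WT replicate 1. The Kcnab2 domain (chr4:152336001-152485000), which also holds the chromatin remodeller Chd5, was 38.3% covered in KO and not at all in WT replicate 1. The opposite was seen in the domain of highest fold, at chr8:123526001-123653000 beside Gas8, where 15.7% was covered in KO and 77.2% in WT replicate 1.

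The KO library could not be set against the spread of WT in the same terms, because the 0 h list covers the domains by choice. Against that list the KO difference was -10.8 points, a value fixed by the choice of members.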

How the data were processed

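The 12 ChIP libraries of 15 samples were analysed (3 inputs were not analysed here), grouped by title, and 2 H3K4me3 libraries whose antibody tag names H3K9me3 were grouped by title too. Per the submitters' processing notes, tools named are SICER, MACS2, Picard, BWA, Trimmomatic and FastQC 0.11.5, and builds are mm10 and GRCm38.p4. No other version or setting is known here.

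H3K27me3 lists were deposited per library as SICER islands (window 1000 bp and gap 4000 bp). The authors' columns hold raw read counts of ChIP and control, a p-value, a fold (ratio) over control scaled to library size, and the FDR as a q-value. Peak lists of the other marks hold the authors' score, fold, −log10 p and −log10 q. All folds are the authors' own, used within a list unless stated.

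Islands of 1 kb windows on chromosomes 1 to 19 were used, at FDR 0.01 or below in the 5 other lists, with the domains' own list taken whole. Islands held 21.6 M reads in KO, 16.4 M in WT replicate 1, and 22.1 M, 15.7 M, 13.3 M and 22.3 M at 0, 30, 40 and 96 h. Total library depths are not given. Protein-coding genes were placed with RefSeq's GRCm38.p6, a patch release of the same build. A gene was inside where its whole body lay in a domain. Start windows were planned, and gene bodies were added because the table of starts is incomplete. The members and gene lists were chosen with earlier results of these data known. Domains named were the 10 longest, the 5 highest and lowest by fold, best and least covered per list, richest in genes and in each mark, and each Hox cluster's. Of their genes and of each list, up to 5 or 6 were named, not all of which appear, and other genes and domains, such as Nkx2-3, En1, Gbx2, Foxd3 and Pkm, were singled out after their values were seen.

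Replicates within a group are separate libraries that may be technical. With simulated lists, the coverage steps were checked and gave 848 of 848 classes and 500 of 500 windows right. Tools were matplotlib 3.10.9, scipy 1.17.1, pandas 2.3.3, numpy 2.4.6 and Python 3.11.15. Alternatives covered the FDR and fold limits, class limits, bridged gaps, domain length, equal list length, peak and window limits, each library left out, and the 12 domains left out.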

Additional observations from a re-analysis of the deposited data

How the results depend on the processing

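With islands of fold 1.5 or more, covered length was 84.6% in KO, 74.2% in WT replicate 1, and 47.7%, 42.4% and 68.1% at 30, 40 and 96 h, with 32 and 28 domains kept whole at 30 and 40 h. At fold 2 or more it was 24.2%, 22.3%, 0.129%, 0.639% and 19.5%, with 96, 86, 0, 0 and 64 kept whole, and KO minus WT replicate 1 was 1.90 points (10.3 at fold 1.5 or more). At such a limit few islands of the 30 and 40 h lists remain. Bridging gaps of up to 10 kb gave 91.1%, 84.0%, 82.7%, 75.1% and 84.6%, and 570, 420, 305, 242 and 427 kept whole. Equal covered length gave 83.8% in KO and 75.03% and 76.2% at 30 and 96 h. Kept whole at 75% of the domain, the counts were 139 and 88 at 30 and 40 h, and at 50% they were 621, 532, 371, 268 and 495 over the 5 lists. From 75 kb the counts were 514, 381, 147, 108 and 327, and from 150 kb 99, 80, 12, 11 and 61, as more or fewer domains enter. With bridged gaps, other class limits, lengths or fold limits, fewer domains were kept whole at 30 and 40 h than in the other 3 lists.

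At H3K4me3 peaks, the difference at 30 and 40 h was -26.3 and -21.0 points with islands of fold 1.5 or more and -22.7 and -16.0 with bridged gaps. At fold 2 it was 0.125 at 30 h, a reversal, and -0.451 at 40 h, where hardly a window is covered. Leaving out either WT H3K4me3 library gave -29.4 to -25.03 at 30 h and -24.3 to -17.1 at 40 h. KO minus WT coverage was -10.8 without WT replicate 1, a reversal that the choice of domains fixes, and 6.86 without WT replicate 2. H3K9me3 narrow peaks covered 0.808% in KO and 0.822% in WT, and broad peaks of −log10 q 5 or more 0.0798% in KO and 0.0558% in WT, which turns the order of KO and WT round. Counted by any overlap, 1443 genes were in domains. Leaving out the 12 domains that failed the FDR limit (chosen after seeing the data) moved none of the covered lengths or kept whole counts by more than their limits. Of 151 other values, mainly counts of broken, shortened and absent domains, 64 were within 1.5 times their main value and 87 were not.

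No paired analysis was possible because the result comes from no test and the groups compared share fewer than 2 replicate numbers in the H3K27me3 libraries. Each library was called alone, and a gap says that a stretch was not called at that depth, not that the mark is absent there. H3K4me3 was measured in resting liver only.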

Other observations

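A set of 33 genes in 21 domains had none of their body in islands at 30 and 40 h and all of it in KO, in WT replicate 1 and at 96 h. The reverse pattern was seen for 1 gene. Both patterns were counted only among the 947 genes wholly inside domains. They were not counted over all genes, so no background share is given and the counts say nothing particular of the domains. Genes anywhere also kept cover less often at 30 and 40 h than in KO, WT replicate 1 and at 96 h. The part of this in the counts of 33 and 1 was not tested. The 33 genes were picked for their pattern after their values were seen. Besides 15 Hox genes they include the homeobox genes Lhx1, Cdx2, Uncx, Hlx and Nkx2-3, the T-box gene Tbx2, the zinc finger gene Zic2 and Foxd3, which are developmental regulators of other tissues. Genes outside those families include Mup17, Krt24, Cdk5r2, a neuronal activator of Cdk5, and Ndn, the imprinted gene of necdin. By contrast 287 of the 947 genes, in 155 domains, were wholly covered in all 5 lists, also without a count over all genes.

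A few domains were called whole in some libraries and absent in others, with nothing between. The domain at chr8:20493001-20712000, with a fold of 1.19 at 0 h, was 100% covered in KO, in WT replicate 1 and at 30 and 96 h, and 0% at 40 h. The domain at chr14:4815001-4955000, which failed the FDR limit at 0 h, was 0% covered in KO and 97.1% to 100% covered in the 4 other lists. The domain at chr3:106123001-106262000, which holds the chitinase-like genes Chil3 and Chil4, was 0% covered in KO and in WT replicate 1 and 100% at all 3 times. These 3 have 206, 111 and 108 control reads per kb, against a median of 59.9 over the 836 enriched domains.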
